A study of Argopecten irradians with 2 samples.

Results

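The cytochrome P450 enzymes of families 1 and 2, with the closely related steroid 17-alpha-hydroxylases of family 17, were represented by 40 unigenes in the gills of the bay scallop (Argopecten irradians). A unigene is a transcript sequence assembled from the reads without a genome. The members were chosen by the name of their best Swiss-Prot hit (a cytochrome P450 of family 1 or 2, a steroid 17-alpha-hydroxylase or a steroid 21-hydroxylase) and by at least 10 reads in both libraries together. The names matched 47 of 60308 unigenes, and 7 of these fell below 10 reads. No unigene matched the 21-hydroxylase. The rule used the name and the summed reads and not the difference between the libraries, but it was set with earlier results of these data known.

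Cytochrome P450 enzymes are heme-thiolate monooxygenases that insert an oxygen atom into a substrate. In animals, the family 1 and 2 enzymes sit in the membrane of the endoplasmic reticulum and receive electrons from NADPH-cytochrome P450 reductase, with cytochrome b5 as an additional donor for some reactions. In vertebrates, family 1 genes are known as targets of the aryl hydrocarbon receptor, family 2 enzymes oxidize drugs, toxicants and fatty acids, and CYP17A makes steroid precursors. The gill is the surface across which a bivalve filters water and meets dissolved compounds.

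RNA of bay scallop gills was sequenced after 48 h in seawater with 80 mg/L of the algicidal fatty acid palmitoleic acid (PA), and after 48 h in seawater with only its solvent, dimethyl sulfoxide (control). Both groups therefore carried the solvent, and the comparison addressed the response of gill transcripts to PA. There was 1 library for each condition. The labels give each library as RNA of 18 pooled scallops, so no scallop or tank can be told from another, and neither strain nor age was given in the labels. The libraries held 10305482 reads (control) and 10414545 reads (PA), assigned to 52852 and 54724 unigenes. Expected counts, the estimated reads of a unigene, are called reads here.

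With 1 library for each condition no difference has a replicate check. The test of Audic and Claverie on the reads compares these 2 libraries and not the conditions, and each 95% interval covers counting error only. A unigene was called higher or lower in PA at a false discovery rate of at most 0.001 over all unigenes and a fold change of at least 2. Fold changes are ratios of FPKM, fragment counts scaled for the length of the unigene and the depth of the library. A lower level in gill RNA can come from fewer cells that express the unigene or from less RNA in each cell, and these cannot be told apart.

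The gill origin and the other tissues that a dissection could carry over were examined first. Of 152 unigenes of ciliated epithelium (axonemal dyneins, radial spoke, intraflagellar transport and flagella-associated proteins), 25 were at 0 in control and 3 in PA. Of all 60308 unigenes, 52852 had reads in control and 54724 in PA. The summed level of the 152 was 468 FPKM in control and 805 FPKM in PA. Of the 90 with at least 10 reads, 15 were called higher in PA and 2 lower, beside 13.3% and 10.7% of all unigenes at that depth. The 5 digestive gland unigenes (amylase, chymotrypsin and cellulase types) held 84 and 48 reads in sum, none was at 0, and none was called. Muscle unigenes summed to 264 and 321 FPKM, with 6 of 28 called higher and 5 lower, and the only gonad unigene held 3 and 17 reads. At 10 reads or more, the median log2 fold change was 1.16 for ciliated epithelium, -1.14 for digestive gland and 0.42 for muscle. It was 0.21 over all unigenes at that depth. The part of these tissue differences in the P450 results was not tested.

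Of the 40 P450 unigenes, 9 were called higher in PA (22.5%) and 10 lower (25%), while 21 were not called. Among all 38391 unigenes with at least 10 reads, 13.3% were called higher and 10.7% lower. The P450 unigenes were more deeply covered than the rest, with a median of 145.5 reads against 56.9, and a deeply covered unigene is called more easily. Among unigenes with at least 50 reads, the background was 19.9% higher and 15.5% lower, and the 28 P450 unigenes at that depth had 7 called higher (25%) and 10 lower (35.7%). The median log2 fold change of the 40 was -0.48, against 0.21 over all unigenes with at least 10 reads. The division of calls among all unigenes depended on the scaling of the libraries. It was 5096 higher and 4104 lower by library totals, and 3842 higher and 5376 lower with TMM factors, which lowered every log2 fold change by 0.24. The P450 unigenes had 8 higher and 12 lower calls with TMM factors, and 37 of the 40 kept their call.

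**Figure D1:**
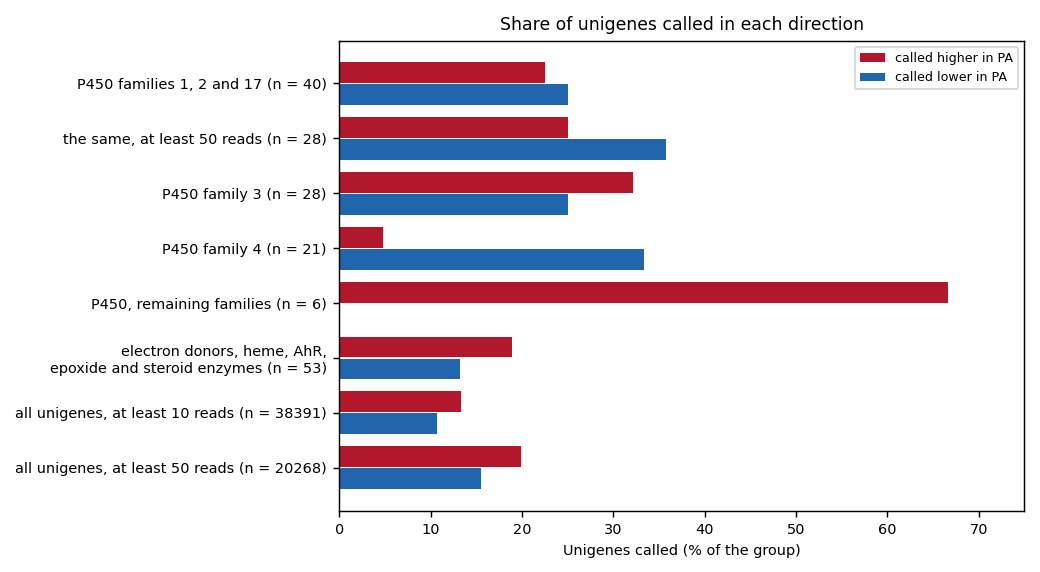
Share of unigenes (in %) called higher (red) and lower (blue) in the PA library, for the P450 unigenes, the remaining P450 families, the unigenes of partner proteins and all unigenes, with n unigenes in brackets. The 40 P450 unigenes had 22.5% called higher and 25% called lower, beside 13.3% and 10.7% of all unigenes with at least 10 reads.

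**Figure D2:**
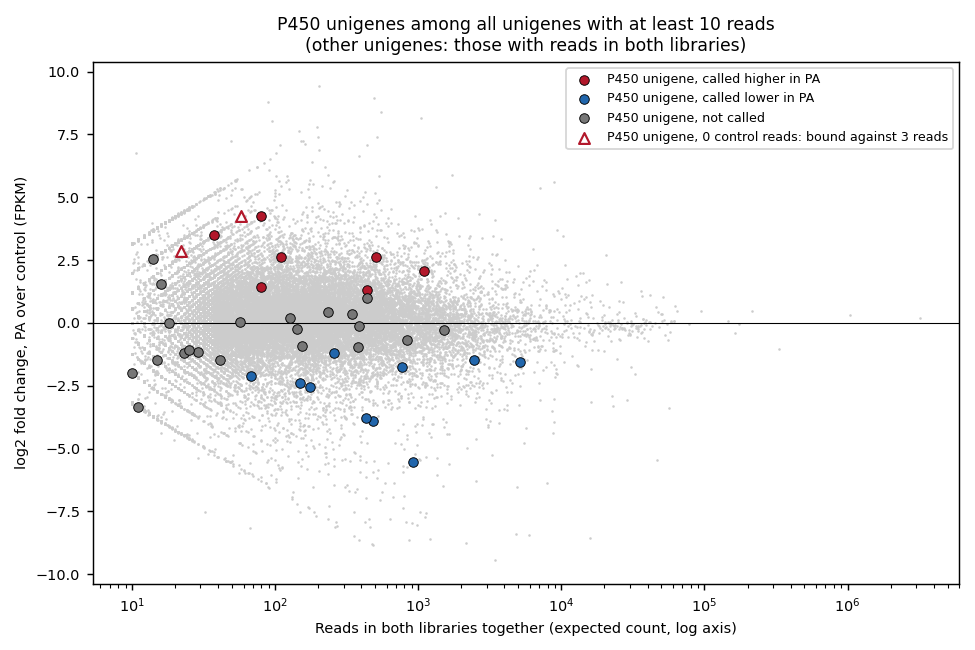
Reads in both libraries together (x axis, log scale) against the log2 fold change of PA over control by FPKM (y axis) for the P450 unigenes (large circles coloured by call, open triangles for the bounds of those with 0 control reads) and for every other unigene with at least 10 reads and reads in both libraries (grey). The P450 unigenes lay on both sides of 0, and the lowest, Unigene1859_All, stood at -5.52.

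The 40 unigenes together held 11459 reads in control and 6565 in PA (log2 fold change -0.82, interval -0.86 to -0.77). The sum was held by few members. CL4718.Contig1_All and Unigene20943_All gave 48.8% of the control reads, and without them the sum was 5872 in control and 4606 in PA (log2 fold change -0.37, interval -0.42 to -0.31). That remainder still held CL4718.Contig2_All, a contig of the same cluster as CL4718.Contig1_All, which rose from 208 to 884 reads. Reads shared by these contigs were divided by estimate, so the value of the remainder depends on that division. By FPKM, the 3 leading members of each library held 45.7% of the summed level in control and 30.3% in PA, and they were not the same 3. In control they were CL4718.Contig1_All, Unigene20943_All and Unigene1859_All. In PA they were CL4718.Contig1_All, CL4718.Contig2_All and Unigene46837_All. The order of the members was different in the 2 libraries. Only 4 unigenes were among the first 10 in both, while 9 unigenes reached 10 FPKM in each library.

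**Figure D3:**
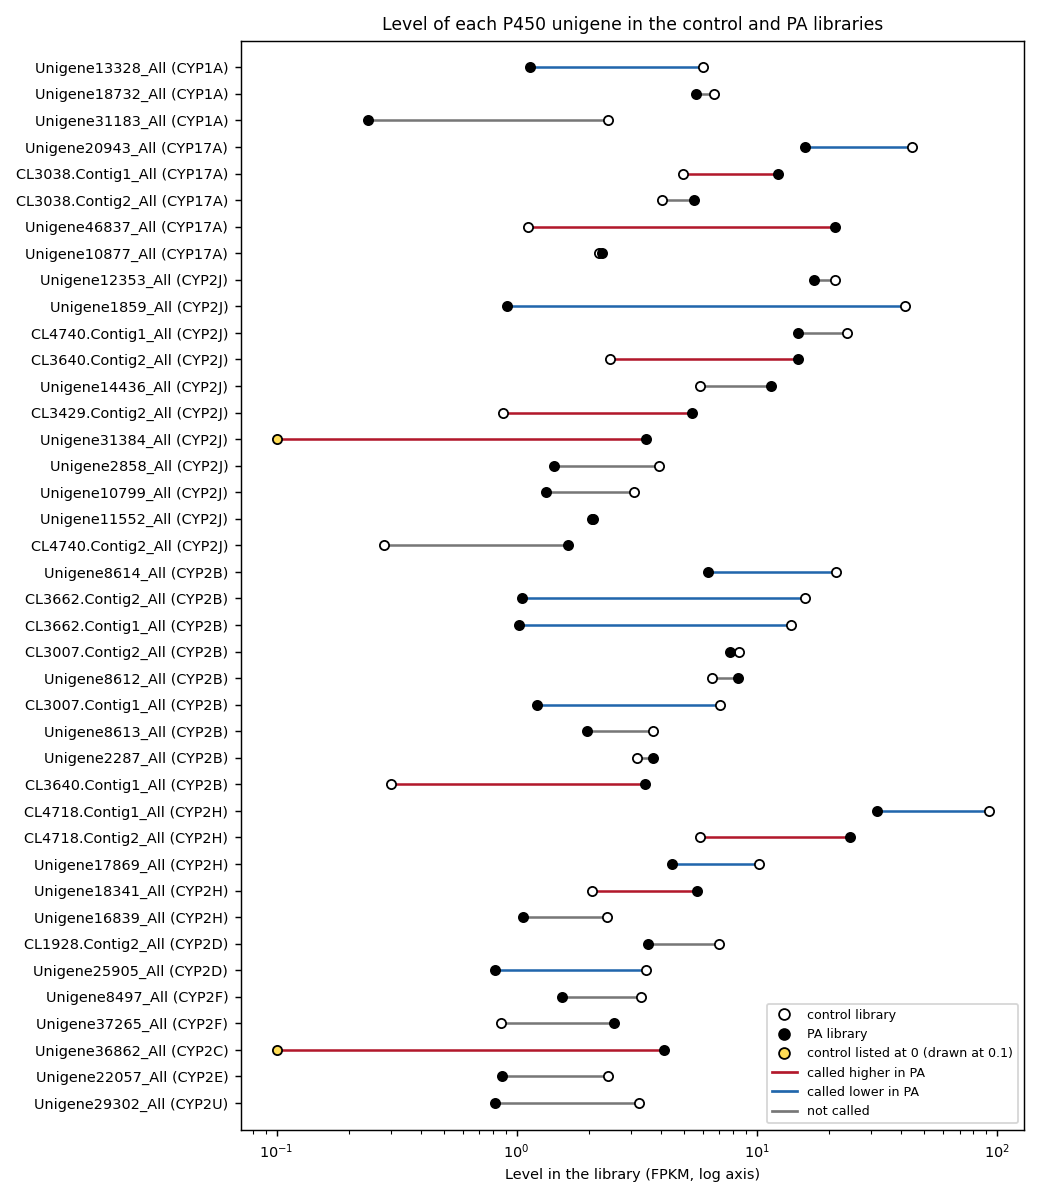
Level of each P450 unigene in FPKM (log axis) in the control library (open circles) and the PA library (filled circles), grouped by the subfamily of the Swiss-Prot hit, with the line coloured by call. Unigene1859_All went from 41.7 to 0.91 FPKM, and Unigene46837_All from 1.12 to 21.2 FPKM.

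The 3 unigenes named for CYP1A, the subfamily that vertebrates induce through the aryl hydrocarbon receptor, gave 1 call, and it was lower. Unigene13328_All, closest to chicken CYP1A5 and to a family 1-like protein of the mussel Mytilus edulis, held 125 reads in control and 24 in PA (5.99 and 1.14 FPKM). This was a log2 fold change of -2.39 (interval -3.09 to -1.76). It was the only family 1 unigene whose Nr hit, the best hit among all known proteins, was also named as a family 1 protein. Unigene18732_All held 77 and 65 reads and matched human CYP1A2 only weakly (E-value 7e-12), while its Nr hit was an oyster steroid 17-alpha-hydroxylase. Unigene31183_All held 10 and 1 reads, a log2 fold change of -3.33 that was not called.

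The receptor side of that pathway was near the threshold. The aryl hydrocarbon receptor, Unigene19341_All, held 43 reads in control and 98 in PA and was called higher (log2 fold change 1.18, interval 0.64 to 1.73), but it was not called with TMM factors or with the median of ratios. Its partner, the nuclear translocator homolog Unigene3798_All, held 169 and 246 reads. The receptor-interacting chaperone Unigene11301_All held 35 and 50 reads. Neither was called, and of the 3 unigenes of the pathway with at least 10 reads the receptor was the only one called.

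The 5 unigenes named for CYP17A, the steroid 17-alpha-hydroxylase and lyase of vertebrates, gave 2 calls higher and 1 lower. The most abundant, Unigene20943_All, fell from 1783 to 648 reads (44.2 to 15.9 FPKM, log2 fold change -1.47, interval -1.61 to -1.34). Its Nr hit was the enzyme of the same name in the Pacific oyster Crassostrea gigas, so the names from both databases matched. By level it had rank 2 of the 40 members in control and rank 5 in PA.

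CL3038.Contig1_All moved the other way, from 126 to 315 reads (4.95 to 12.3 FPKM, log2 fold change 1.31, interval 1.004 to 1.62), and was called higher. The second contig of that cluster held 98.3 and 135 reads and was not called. Contigs of a cluster are similar sequences, and the authors' counting divides shared reads between them by estimate. Summed over the cluster the reads were 224 and 450, a log2 fold change of 0.99, just under the 2-fold threshold. The Nr hit of both contigs, and of Unigene10877_All with 28 and 29 reads, was CYP356A1, an oyster P450 that is not a family 17 enzyme by name.

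Unigene46837_All had the largest rise among members with reads in both libraries, from 4 to 76 reads (1.12 to 21.2 FPKM), which is 18.9-fold (log2 fold change 4.24, interval 2.82 to 6.15). It moved from rank 34 to rank 3 by level. It was a fragment of 396 bases with a weak hit to a frog CYP17A (E-value 2e-09), and Nr and KEGG named it CYP2U1, which in humans hydroxylates long-chain fatty acids.

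The CYP2J subfamily, known in mammals for the epoxidation of arachidonic acid, was the largest group, with 11 unigenes, of which 3 were called higher, 1 lower and 7 neither. Its median log2 fold change was -0.01, and its members spread widely around it. Unigene1859_All fell furthest of all members, from 905 reads to 20 (41.7 to 0.91 FPKM), which is 45.8-fold lower (log2 fold change -5.52, interval -6.23 to -4.88). By level it had rank 3 in control and rank 36 in PA.

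In the opposite direction, CL3640.Contig2_All rose from 70 to 432 reads (2.44 to 14.9 FPKM, log2 fold change 2.61, interval 2.24 to 2.996). CL3429.Contig2_All rose from 15.4 to 95 reads (0.88 to 5.39 FPKM, log2 fold change 2.61, interval 1.85 to 3.54). Unigene31384_All had no read in control and 57.8 in PA (0 and 3.46 FPKM). Against the 3 reads that a count of 0 allows, it was at least 19.1-fold higher (4.25 on the log2 scale). That bound takes the PA reads as exact, and the 95% counting interval reached lower, to 3.91.

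The other abundant CYP2J unigenes were not called. Unigene12353_All held 829 and 689 reads (21.2 and 17.4 FPKM, log2 fold change -0.28, interval -0.43 to -0.13). CL4740.Contig1_All held 510 and 320 reads (log2 fold change -0.69, interval -0.89 to -0.48). Unigene14436_All held 146 and 294 reads, and its log2 fold change of 0.99 fell just short of 2-fold. The intervals of all 3 left out 0. The 4 remaining CYP2J unigenes held at most 41 reads in both libraries together, and none was called.

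Of the 9 CYP2B unigenes, a subfamily that phenobarbital induces in rodent liver, 1 was called higher and 4 lower, with a median log2 fold change of -0.91. The contigs CL3662.Contig1_All and CL3662.Contig2_All, both closest to rabbit CYP2B5, fell together. Contig 1 held 400.0 reads in control and 29.8 in PA (13.9 and 1.02 FPKM, log2 fold change -3.76, interval -4.34 to -3.22). Contig 2 held 451 and 30.1 reads (15.9 and 1.05 FPKM, log2 fold change -3.92, interval -4.51 to -3.39). The cluster as a whole fell from 852 to 63.9 reads (log2 fold change -3.75), close to the values of its contigs.

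Unigene8614_All, closest to rat CYP2B2, fell from 588 to 175 reads (21.4 to 6.29 FPKM, log2 fold change -1.76, interval -2.02 to -1.52). CL3007.Contig1_All fell from 148 to 25.8 reads (7.05 to 1.22 FPKM, log2 fold change -2.53, interval -3.19 to -1.92). The second contig of CL3007 held 199 and 184 reads and was not called, and the cluster summed to 347 and 210 reads (log2 fold change -0.74), which was not called either. The only CYP2B unigene called higher was the low CL3640.Contig1_All, with 3 reads in control and 34 in PA, an FPKM ratio of 11.4 (log2 fold change 3.51, interval 1.82 to 5.83). It belongs to the same cluster as the CYP2J-named CL3640.Contig2_All, and the cluster rose from 73 to 466 reads (log2 fold change 2.66).

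The other 4 CYP2B unigenes were not called. Unigene8612_All held 149.65 and 195 reads, and Unigene2287_All held 58 and 68. Unigene8613_All, with the same Swiss-Prot hit as Unigene8614_All, held 101 and 54.0 reads (log2 fold change -0.91), and it was called lower with TMM factors. The second contig of CL3007 was the fourth.

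The 5 CYP2H unigenes, named for the phenobarbital-inducible P450s of chicken, gave 2 calls in each direction. The most abundant P450 of the set, CL4718.Contig1_All, fell from 3805 to 1310.25 reads (92.7 to 31.6 FPKM, log2 fold change -1.55, interval -1.65 to -1.46). It kept the highest level in both libraries. The second contig of its cluster, CL4718.Contig2_All, rose from 208 to 884 reads (5.82 to 24.5 FPKM, log2 fold change 2.07, interval 1.85 to 2.30) and moved from rank 16 to rank 2.

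These opposite changes came with a shift within the cluster. Contig 2 held 5.19% of the reads of CL4718 in control and 40.3% in PA. The cluster as a whole held 4013 and 2194 reads, a log2 fold change of -0.89 that was not called. Both contigs matched chicken CYP2H2 and had Nr hits of the same name. Reads that match both were divided by estimate, and each contig's fold change rests on that division. Reads of both contigs were not whole numbers, which shows that such a division was made.

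**Figure D4:**
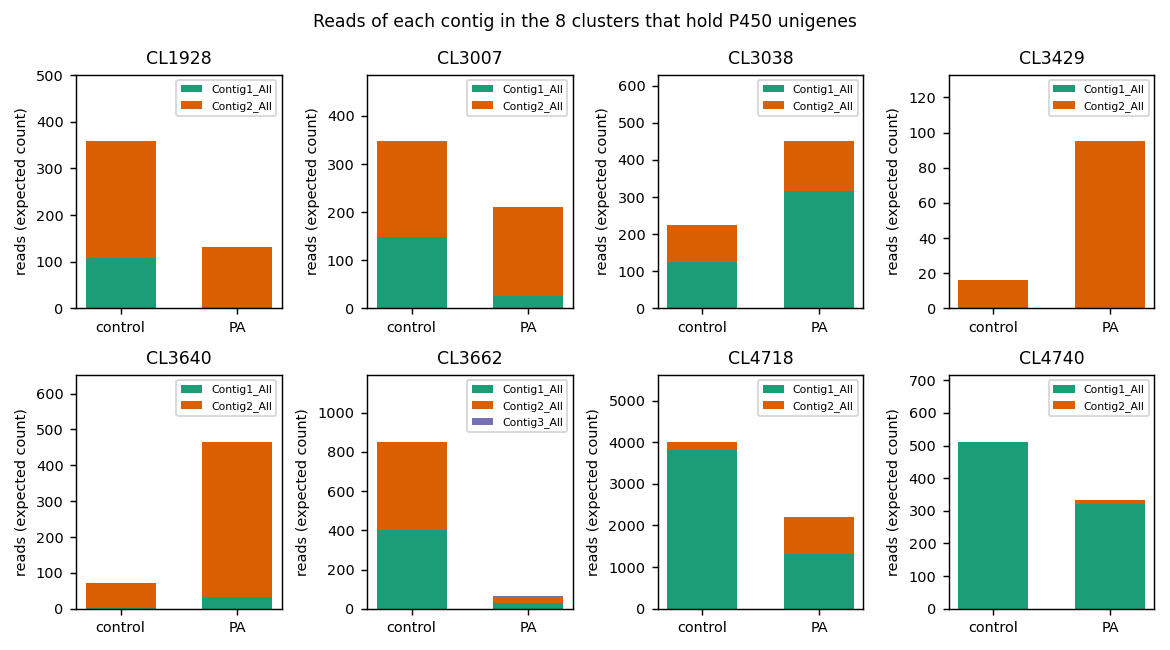
Reads (expected counts) of each contig in the control and PA libraries for the 8 clusters that hold P450 unigenes, each panel with its own axis from 0. CL3640 rose and CL3662 fell in all contigs with more than 10 reads in sum, while in CL4718 contig 1 fell and contig 2 rose.

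The remaining CYP2H unigenes were single sequences. Unigene17869_All fell from 180 to 79 reads (10.2 to 4.44 FPKM, log2 fold change -1.20, interval -1.60 to -0.81). Unigene18341_All rose from 21 to 58 reads (2.07 to 5.65 FPKM, log2 fold change 1.45, interval 0.71 to 2.25). That call was lost with TMM factors and with the median of ratios. Unigene16839_All held 20 and 9 reads and was not called.

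The small subfamilies held 7 unigenes. Of the CYP2D type, which in mammals oxidizes many basic drugs, Unigene25905_All fell from 55 to 13 reads (3.46 to 0.81 FPKM, log2 fold change -2.09, interval -3.09 to -1.21), and KEGG placed it with the vitamin D 25-hydroxylases. CL1928.Contig2_All, the other CYP2D unigene, held 249.65 and 129 reads (log2 fold change -0.97). It was not called by library totals and was called lower with TMM factors. An unannotated contig of its cluster went from 108 to 3.36 reads, and the cluster fell from 358 to 132 reads (log2 fold change -1.45).

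Unigene36862_All, closest to mouse CYP2C70, had no read in control and 22 in PA (0 and 4.11 FPKM). It was at least 7.26-fold higher against 3 reads (2.86 on the log2 scale), a bound that again takes the PA reads as exact, while the counting interval reached down to 2.44. It was the called member with the fewest reads. The CYP2F unigenes held 17 and 8 reads (Unigene8497_All) and 4 and 12 reads (Unigene37265_All). The CYP2E unigene, named for the ethanol-oxidizing enzyme of mammals, held 11 and 4 reads. None of these last 3 was called.

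The CYP2U unigene Unigene29302_All, with 8 and 2 reads, lay exactly at the filter of 10 reads, and Unigene29301_All, another CYP2U1 match with 7 and 0 reads, lay just outside it. The 7 unigenes below the filter held 23 reads in control and 8 in PA in sum.

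**Figure D5:**
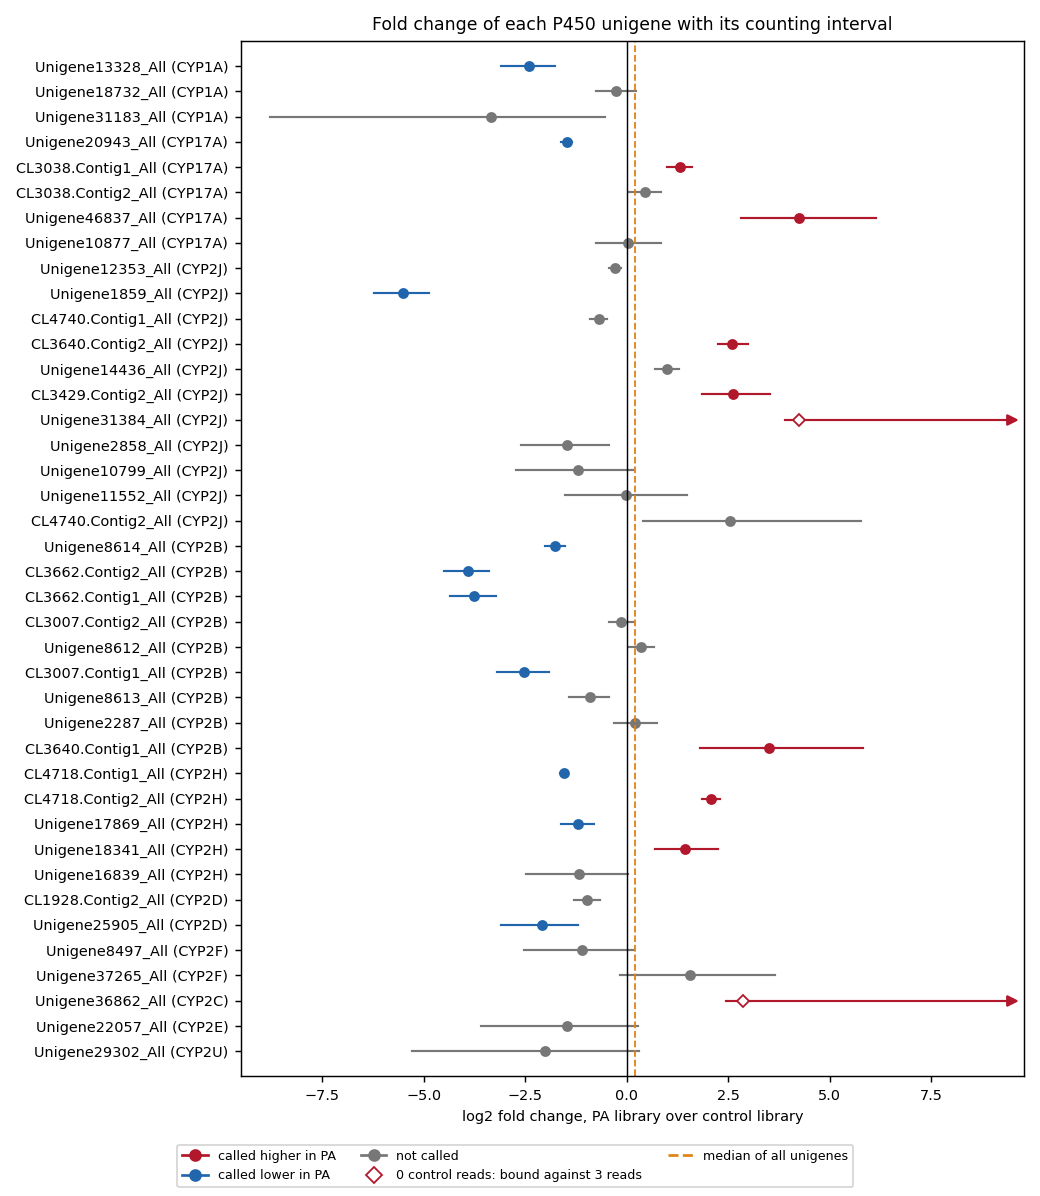
Log2 fold change of PA over control for each P450 unigene (points) with its 95% counting interval (lines), grouped by subfamily and coloured by call, with the median of all unigenes as a dashed line at 0.21. Open diamonds are the bounds of Unigene31384_All and Unigene36862_All, which had 0 control reads, and their intervals have no upper end.

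The subfamily names come from vertebrate proteins and do not place the scallop enzymes in a subfamily. Swiss-Prot and KEGG gave the same subfamily for 8 of the 40, and Swiss-Prot and Nr for 3. The 40 unigenes took 10 subfamily names in Swiss-Prot, but 21 of them shared the Nr hit name CYP2C8 of the Pacific oyster. The KEGG entry of 21 was CYP2K, a subfamily of fish. Of the 21 with the CYP2C8 hit, which carried 6 Swiss-Prot subfamily names, 6 were called higher, 6 lower and 9 neither. Unigenes with an Nr hit of that name thus moved both ways. An InterPro entry was given for 39 of the 40.

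The calls are given by length only as a description. All unigenes were not divided by length, so no matching share stands beside these counts. Of the 24 members of at least 1500 bases, 5 were called higher and 10 lower. Of the 16 shorter ones, 4 were called higher and none lower. The shorter members had a median of 24 reads against 407 for the longer, and that depth moved with length. Its part in the count was not tested. Of the 21 members not called, 12 differed by less than 2-fold and 9 by 2-fold or more without passing the false discovery rate at their depth.

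Members that share a cluster are not independent. The 40 unigenes fell into 8 clusters with 14 contigs and 26 single sequences. With the reads of each cluster summed, these 34 units gave 6 calls higher, 8 lower and 20 neither. The matching share over all clusters and single sequences is not given, and the shares of all unigenes above do not stand in for it. Under an exact test that assumes a biological coefficient of variation of 0.4 between scallop pools, a value set and not measured here, 1 member was called higher (Unigene31384_All) and 1 lower (Unigene1859_All).

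The other P450 families had as many calls in each direction, with 14 of 55 higher and 14 lower (25.5% each). All unigenes with at least 10 reads had 13.3% and 10.7%, and those with at least 50 reads had 19.9% and 15.5%. The 55 held a median of 189 reads, against 56.9 over all unigenes with at least 10 reads. The 28 family 3 unigenes, in vertebrates drug- and steroid-oxidizing enzymes, had 9 higher and 7 lower. The 21 family 4 unigenes, known for the omega-hydroxylation of fatty acids, had 1 higher and 7 lower, with a median log2 fold change of -1.01. The other 6 P450 unigenes had 4 higher and none lower. With TMM factors the 55 had 7 higher and 16 lower. The differences between families were not tested.

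Among the electron donors, a contig of the P450 reductase was called lower and unigenes of the cytochrome b5 reductases were called higher. NADPH-cytochrome P450 reductase, the enzyme that feeds these P450s, was on 2 contigs of one cluster. CL4387.Contig1_All fell from 195 to 45.8 reads (log2 fold change -2.10, interval -2.60 to -1.63), while the other contig held 53.5 and 53.2. Summed over both contigs the reads were 248 and 99 (log2 fold change -1.34), which was called lower.

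Of the 3 unigenes of NADH-cytochrome b5 reductase 1, which reduces cytochrome b5, Unigene13112_All and CL2461.Contig1_All were called higher. CL2461.Contig2_All rose from 271 to 385 reads (log2 fold change 0.49, interval 0.26 to 0.72) and was not called. Summed over the CL2461 cluster the reads were 618 and 1380 (log2 fold change 1.14), which was called higher. Unigene13112_All went from 164 to 967 reads (log2 fold change 2.55, interval 2.30 to 2.79), and CL2461.Contig1_All from 347 to 995 reads (log2 fold change 1.51, interval 1.33 to 1.69). CL3146.Contig3_All, a related reductase, went from 13.8 to 53.5 reads and was called higher, but its cluster was not. Cytochrome b5 itself, Unigene1602_All, held 1383 and 766 reads (log2 fold change -0.87), below the 2-fold threshold by library totals and called lower with TMM factors. In all, 3 of the 15 unigenes found by these names were called higher and 1 lower, and the 15 include cytochrome b560 and b561 unigenes, which are not donors of P450.

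Of the 9 heme synthesis unigenes, 1 was called, delta-aminolevulinic acid dehydratase (CL112.Contig1_All), which rose from 352 to 831 reads (log2 fold change 1.22) and was not called with TMM factors. The first enzyme of that pathway, 5-aminolevulinate synthase, held 212 and 159 reads over its cluster and was not called. Of 6 heme-binding unigenes, the heme-binding protein 2 unigenes Unigene21347_All (795 to 342 reads, log2 fold change -1.23) and Unigene5067_All (504 to 159 reads, log2 fold change -1.68) were called lower. A contig of the same name, CL1152.Contig3_All, was called higher (122 to 282 reads, log2 fold change 1.19), but not with TMM factors. Its cluster of 5 contigs went the other way, with 2139 and 1291 reads (log2 fold change -0.74), and was not called.

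The enzymes that act next to these P450s were called in both directions. Of 4 epoxide hydrolases, which open the epoxides that family 2 enzymes form, the epoxide hydrolase 3 contig CL4341.Contig1_All rose from 233 to 592 reads (log2 fold change 1.33, interval 1.11 to 1.56). Of 16 steroid dehydrogenase and reductase unigenes, 3 were called higher and 4 lower. A 17-beta-hydroxysteroid dehydrogenase 6 type, Unigene17791_All, rose from 79 to 378 reads (log2 fold change 2.25). Unigene10816_All, a 17-beta-hydroxysteroid dehydrogenase 13 type, rose from 51.8 to 264 reads (log2 fold change 2.33). A 5-alpha-reductase type, Unigene20877_All, fell from 218 to 75 reads (log2 fold change -1.55).

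CL958.Contig2_All, a 17-beta-hydroxysteroid dehydrogenase 14 type, fell from 380 to 9.81 reads (log2 fold change -5.29), but its cluster of 3 contigs held 847 and 516 reads and was not called. Over all 53 partner unigenes, 10 were called higher (18.9%) and 7 lower (13.2%), beside 13.3% and 10.7% of all unigenes with at least 10 reads. The partner unigenes were more deeply covered, with a median of 240 reads against 56.9. Among all unigenes with at least 50 reads, the shares were 19.9% and 15.5%. With TMM factors the partner counts were 7 higher and 10 lower, and with the median of ratios 8 and 10.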

How the data were processed

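Reads were cleaned by the authors in SOAPnuke. Trinity assemblies of the libraries were joined into unigenes by TGICL, and abundance came from Bowtie alignments and RSEM. For each unigene, the deposited table of a library lists an expected count, an FPKM value and the length in bases. RSEM apportions reads that match several contigs, so expected counts need not be whole. Of the 40 members, 14 had reads that were not whole (beyond 0.005) in a library. The authors also deposited a table of their own comparison with log2 fold changes, p-values and false discovery rates. Its unigene names, lengths and annotation were used, and its test columns were not. The methods describe 3 pools where the labels describe 1 pool of 18 scallops for each library.

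A unigene missing from a library's table was taken as 0 reads. Fold changes are ratios of FPKM, with 0 set to 0.01 FPKM for medians and for the fold threshold of the calls. Bounds use 3 reads in a library at 0. The Audic-Claverie test, two-sided and with Benjamini-Hochberg adjustment over 60308 unigenes, used expected counts rounded to whole numbers and library totals. Counting intervals are of the 95% Clopper-Pearson kind, from the PA share of a unigene's reads. The test was checked on counts simulated with counting error only and with set fold changes. Such counts hold no spread between scallop pools, so the check cannot show how often that spread alone would give a call. The labels' titles gave the groups. Python 3.11.15, scipy 1.17.1, pandas 2.3.3, R 4.3.3 and edgeR 4.0.16 were used. The members and gene lists were chosen with earlier results of these data known.

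The text names every called member, the 10 members with the most reads, members that the study names where an annotation singles them out, the other contigs of their clusters, and up to 3 called unigenes of each partner list by summed reads. Further members and partners are given to complete a subfamily or a pathway and were chosen after their values were seen. The CYP2C8 name of the study is the Nr annotation of 21 members, so the annotation does not single out 1 of them. Alternatives were TMM and median-of-ratios scaling, other thresholds and filters, a pseudocount of 1 FPKM, summed clusters, and an edgeR exact test at assumed coefficients of variation.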

Additional observations from a re-analysis of the deposited data

How the results depend on the processing

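With an exact test of edgeR at an assumed biological coefficient of variation of 0.2, 7 members were called higher and 6 lower in place of 9 and 10, beside 1943 and 1826 of all unigenes, and 3 partner unigenes were called higher and 3 lower in place of 10 and 7. At 0.4, 1 member was called higher in place of 9 and 1 lower, and the partner unigenes had 0 higher and 1 lower, beside 223 higher and 393 lower among all unigenes. At a fold change of at least 4, 7 members were called higher and 6 lower, and the share of all unigenes at that threshold is not given. With the reads of each cluster summed, CL4718.Contig2_All took the log2 fold change of its cluster, -0.89, and so turned its direction. CL4718.Contig1_All (-0.89), CL3038.Contig1_All (0.99) and CL3007.Contig1_All (-0.74) lost their calls. These follow from adding the reads of the contigs. Of the 21 members that were called or among the 10 with the most reads, TMM and median-of-ratios scaling each changed the call of 1. This was Unigene18341_All (1.21 and 1.23), where all fold changes are lowered. Outside these 21, CL1928.Contig2_All and Unigene8613_All became lower under both scalings, so 37 of the 40 members kept their call under each. The median log2 fold change of the members stayed between -0.81 and -0.27 in the alternatives that gave one.

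No paired analysis was possible because each condition had 1 library. For the same reason leaving out a library gives no value. No member with fewer than 22 reads was called, and depth limits the low unigenes. The spread between scallop pools was not measured.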
